A study of Caenorhabditis elegans with 161 samples.

Results

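The 34 genes described here encode parts of the presynaptic terminal in Caenorhabditis elegans. They comprise synaptic vesicle proteins and the fusion machinery, priming and active zone proteins, axonal transport, endocytosis and channel proteins, dense-core vesicle proteins, transmitter enzymes and transporters, and 2 chaperones. They were chosen as a list of gene symbols by function; the rule uses no measured value, but the list was drawn up with earlier results of these data known. All 34 were found by RefSeq locus tag among the 20687 genes of the deposited count tables. Chemical synapses release transmitter when a vesicle, loaded by a transporter, docks, is primed and fuses through SNARE proteins after calcium enters. Dense-core vesicles carry neuropeptides, which are cut from precursors by a convertase and trimmed by a carboxypeptidase. In the worm embryo most neurons are born before the body elongates, and axons grow and synapses form as it elongates.

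The study followed 20 strains, 19 mutation-accumulation lines and the laboratory reference strain N2, through 7 stages at 0, 60, 180, 270, 440, 650 and 830 min after the 4-cell stage. Mutation-accumulation lines are propagated through bottlenecks of few animals, so that mutations build up almost free of selection. Each of the 140 libraries was made by CEL-Seq, a method that counts transcript 3' ends, from a pool of 10 whole embryos, and each stage group holds 1 library per strain. A further 21 libraries repeat line 522 with 3 pools at each of 7 time points, called A to G after their titles. The time field of most repeats contradicts their titles and was not used; A to G were set beside the 7 stages in order. No agent was given to any group, and embryos were kept at 20°C. In the strain set p-values measure the spread between strains, with 1 pool each. The sheet of the repeats is named as biological repeats, and the sample labels do not say whether those pools came from separate cultures.

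Library totals ran from 5653 to 525902 counts in the strains, with a median of 57199, and from 58543 to 623958 in the repeats, with a median of 219346. Summed CPM (a gene's share of its library's gene counts on the usual CPM scale, adjusted between libraries by TMM) of 6 maternal messages was 157 ± 120 at 830 min and 5510 ± 831 at 0 min (SD, n = 20), whereas 6 body wall muscle markers summed to 19715 ± 4860 at 830 min and 135 ± 121 at 0 min. The 6 strains whose columns come first in the table (550, 570, 502, 555, N2 and 575) had mean scores of 0.0568 to 0.153 on the first principal component over all genes, against -0.0823 to -0.0161 in the 14 strains listed after them. The labels name no batch, and results that rest on these 6 strains are given with and without them. At this depth many members were at 0 counts in single early libraries. A filter of a mean of 1 count per library kept 25 of the 34 members in the strains and 33 in the repeats.

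The 34 genes were low in whole embryos until 270 min and rose mainly at 440 and 650 min. Their summed level was 623 ± 161, 699 ± 238, 689 ± 157, 819 ± 263, 3133 ± 840, 8262 ± 1945 and 7265 ± 1813 CPM at 0, 60, 180, 270, 440, 650 and 830 min (mean ± SD, n = 20). In the repeats of line 522 the sum was 788 ± 30.7, 624 ± 98.1, 527 ± 33.8, 895 ± 53.9, 4325 ± 206, 8598 ± 1164 and 7150 ± 1018 CPM at A to G (n = 3). In whole embryos, fewer cells of a type and less RNA per cell cannot be told apart. Onset was taken as the first stage at which a gene's mean CPM reached 0.1 of its highest stage mean, and midpoint as the first stage at 0.5 of it. By these measures 5 genes had their onset in the 0 min group, 2 more by 60 min, 1 more by 180 min and 3 more by 270 min. Another 14 set in with the 440 min stage and 9 with the 650 min stage. The midpoint came at 440 min for 8 genes, at 650 min for 21 and at 830 min for 2. The stage of 650 min was the highest for 22 genes, that of 830 min for 6 and that of 440 min for 4. These counts depend on the scaling. With counts pooled over the libraries of a stage and no TMM, 9 genes instead of 3 had their midpoint before 440 min, 16 instead of 21 had it at 650 min, and 6 instead of 9 had their onset at 650 min.

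The order was alike for most genes in the repeats, whose line 522 is also 1 of the 20 strains. The onset fell on the same position in 27 of the 34 genes, the midpoint in 28 and the highest stage in 28. Where the onset differed, the repeats were earlier in 6 genes and later in 1, and 3 genes lay more than 1 position apart. Where the midpoint differed, the repeats were earlier in 6 genes and later in 0. Midpoints of unc-43 and unc-104 fell on 440 min in the strains and on E in the repeats, and those of snt-1, rab-3, cpx-1, unc-13 and unc-25 on 650 min and on F.

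**Figure D1:**
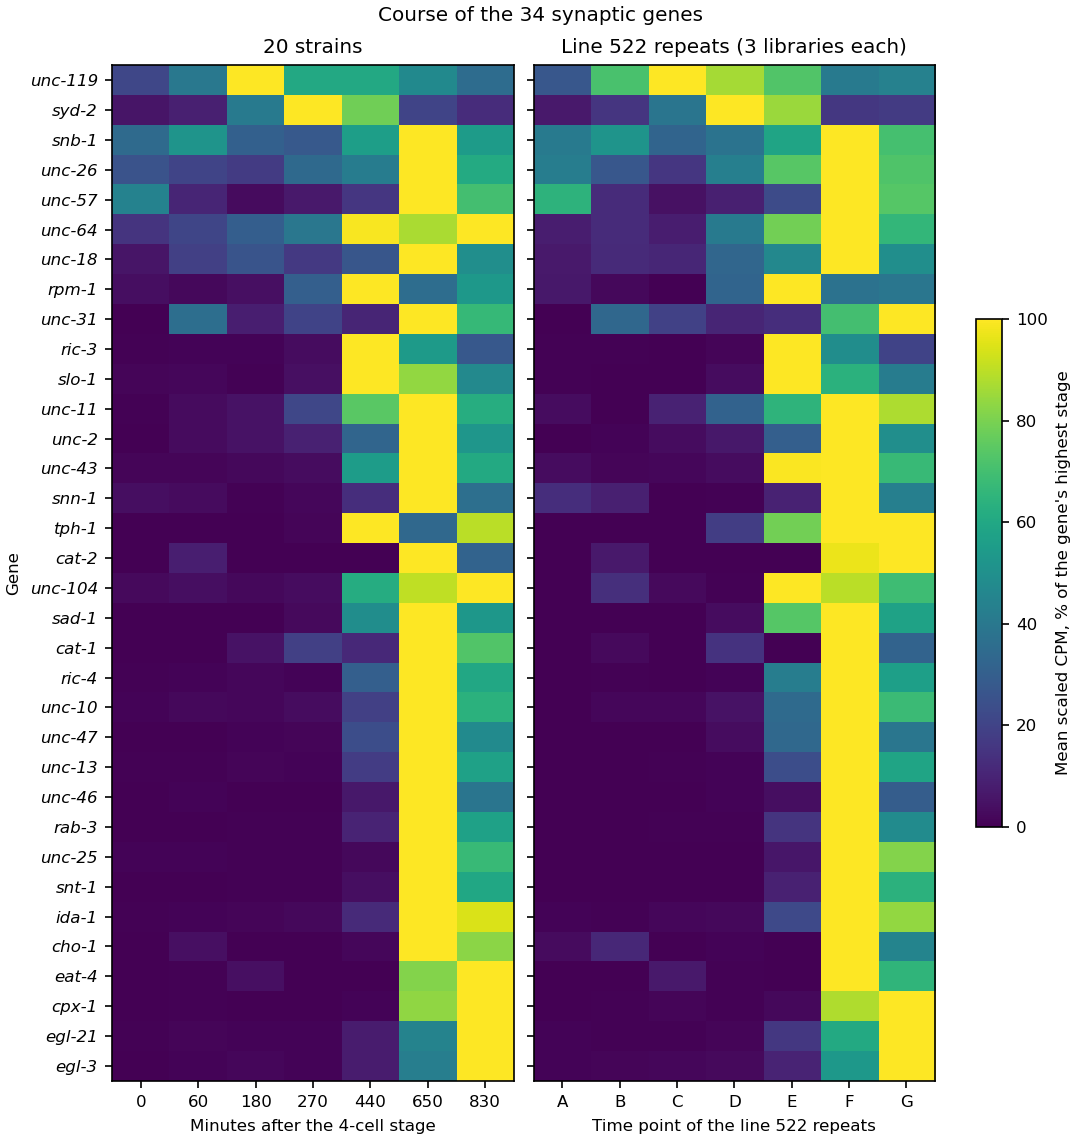
Mean scaled CPM of each of the 34 genes (rows) at the 7 stages of the 20 strains (left, minutes after the 4-cell stage) and the 7 time points of the line 522 repeats (right, A to G), as a percent of the gene's own highest stage mean. The genes are ordered by the centre of their course in the strains: unc-119 and syd-2 peaked first, at 180 and 270 min, and egl-3 and egl-21 were highest at 830 min.

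Each stage was set against the one before it by the quasi-likelihood test of edgeR, in 1 fit over all 7 stages, and a gene was called at a Benjamini-Hochberg adjusted p under 0.05 over all 8842 genes tested and a change of at least 2-fold. Between 270 and 440 min 17 of the 25 tested members were called higher and 0 lower, beside 25.5% of all genes tested called higher. Between 440 and 650 min 16 were called higher, beside 21.7% of all genes, and 2 lower, beside 12.1%. The earlier steps held few calls, but most members had few counts there. With each step filtered and fitted alone, 8, 10 and 13 members reached a mean of 1 count per library at 60, 180 and 270 min. Few calls at these steps therefore do not by themselves date the rise. At 60 against 0 min 3 members were called higher and 1 lower, beside 20.3% and 13% of all genes. At 180 against 60 min there were 2 higher and 1 lower, beside 20.9% and 16.5%. At 270 against 180 min 5 were higher and 0 lower, beside 13.1% and 5.29%. At 830 against 650 min 2 were higher and 1 lower, beside 8.29% and 11.4%.

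The median log2 fold change of the 25 members was 1.74 at 440 against 270 min and 1.89 at 650 against 440 min, beside 0.14 and 0.16 over all genes tested. The scaling moves that baseline: with plain library totals the medians over all genes were -0.30 and -0.28, and those of the members 1.30 and 1.43. With RLE size factors, called genes at 440 against 270 min split into 1873 higher and 2112 lower instead of 2254 and 1254, and the members into 15 higher and 0 lower. At 60 against 0 min the split over all genes was 893 higher and 1966 lower with RLE, against 1799 and 1148 with TMM, and that of the members 1 higher and 2 lower. In the repeats, with 11688 genes tested, 20 of 33 members were called higher at E against D, beside 27.6% of all genes. At F against E 19 were called higher and 2 lower, beside 23.1% and 14.4%. At the other steps of the repeats members called higher and lower numbered 4 and 1 at B against A (13.2% and 10.3% of all genes), 1 and 1 at C against B (10.6% and 13.8%), 5 and 0 at D against C (7.29% and 3.26%), and 0 and 1 at G against F (6.06% and 8.74%).

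**Figure D2:**
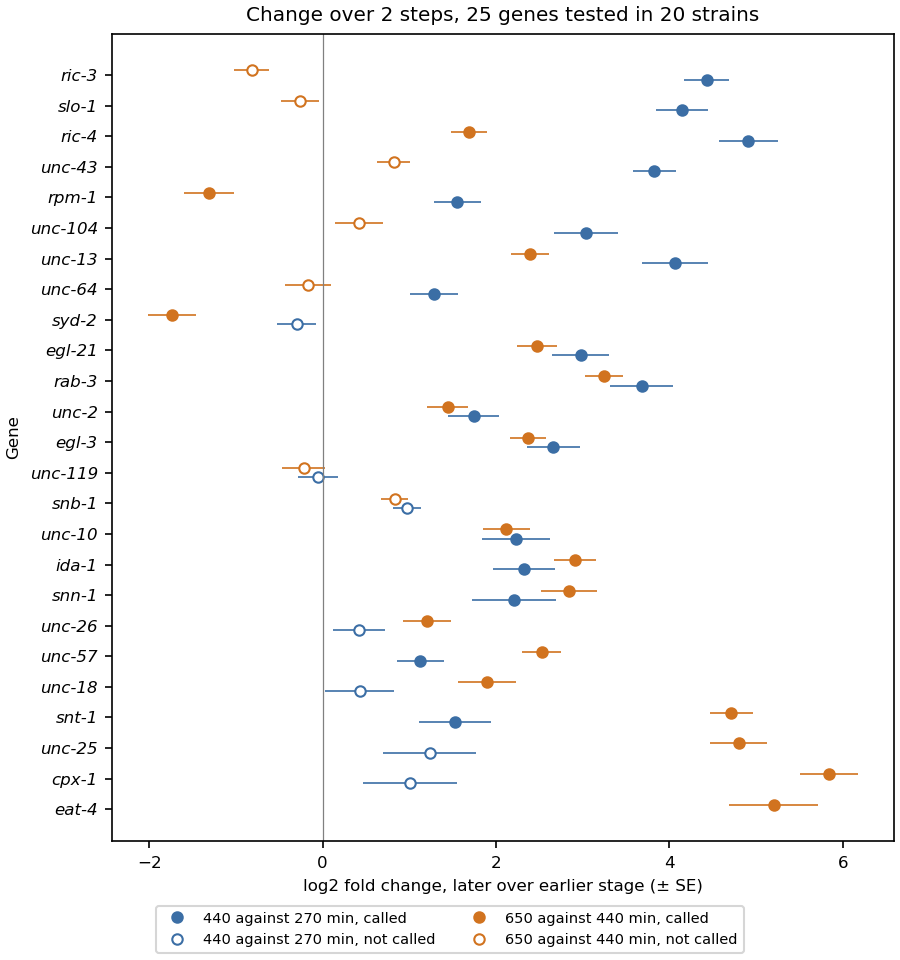
Log2 fold change of the 25 tested genes (rows) at 440 against 270 min (blue) and at 650 against 440 min (orange) in the 20 strains, with the standard error of the edgeR fit. Filled points were called (adjusted p under 0.05 and at least 2-fold), and eat-4 has no point at 440 against 270 min because both stages hold 0 counts. The genes at the top (ric-3, slo-1, ric-4, unc-43) changed more at 440 min than at 650 min, and those at the bottom (snt-1, unc-25, cpx-1) more at 650 min.

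Among the 7 vesicle membrane and SNARE genes, 5 of 7 rose at 440 min, beside 25.5% of all genes, and 5 at 650 min, beside 21.7%. Synaptotagmin, snt-1 (F31E8.2), is the calcium sensor of release. Its mean was 0.116, 1.71, 2.68, 2.37, 16.8, 469 and 278 CPM over the 7 stages, and single strains ran from 192 to 780 CPM at 650 min (median 478), against 0 to 48.2 CPM at 440 min (median 16.6). Every strain at 650 min was thus above every strain at 440 min, and the change was 4.72 ± 0.25 (log2 ± SE, edgeR adjusted p = 5.88e-41). In the repeats snt-1 had 624, 547 and 615 CPM at F, against 83.0, 52.5 and 31.9 CPM at E, and no count in any of the 9 libraries of A to C. Its small step at 440 min (1.52 ± 0.42, adjusted p = 0.00308 in the same fit) was not called within the 6 strains listed first.

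Complexin, cpx-1 (Y73E7A.4), which clamps and then promotes SNARE-driven fusion, rose at 650 min. It had 224 ± 125 CPM at 650 min and 2.71 ± 7.36 CPM at 440 min, a log2 change of 5.84 ± 0.34 (edgeR adjusted p = 1.11e-37), higher in 19 of 20 strains. The exception was N2, whose 650 min library of 33541 counts held none for cpx-1. The vesicle GTPase rab-3 (C18A3.6) climbed over both steps. It reached 341 to 1270 CPM at 650 min (median 854), against 0 to 169 CPM at 440 min (median 86.2), while its median at 270 min was 0. The strains of 650 and 440 min did not overlap, and rab-3 rose by 3.68 ± 0.36 at 440 min and by 3.24 ± 0.22 at 650 min on the log2 scale (adjusted p = 4.12e-18 and 1.45e-31 in edgeR).

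The plasma membrane SNARE gene ric-4 (Y22F5A.3), a member of the SNAP family, took its main step at 440 min. It had 69.1 to 399 CPM at 440 min (median 208), against 0 to 36.8 CPM at 270 min (median 0), and these ranges did not overlap. The step was 4.91 ± 0.34 at 440 min and 1.69 ± 0.20 at 650 min (log2 ± SE, edgeR adjusted p = 1.95e-29 and 3.1e-13). Syntaxin, unc-64 (F56A8.7), the other plasma membrane SNARE, was present from the start, with 13.9, 19.3, 27.5, 36.6, 91.4, 80.7 and 92.2 CPM over the stages. Its one called step, at 440 min (1.28 ± 0.28, adjusted p = 2.56e-05 in edgeR), fell under 2-fold with RLE size factors (0.90) and with plain totals (0.83). In the repeats it was called a step earlier, with 47.7, 43.2 and 43.1 CPM at D, against 6.57, 0 and 19 CPM at C. That call was lost with DESeq2 and without replicate 1. The libraries of C held 1, 0 and 2 counts, and replicate 1 had 37.1 CPM at B already.

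Synaptobrevin, snb-1 (T10H9.4), the SNARE on the vesicle, had counts throughout. It had 273 ± 94.7, 409 ± 150, 243 ± 72.9, 221 ± 96.6, 445 ± 107, 792 ± 205 and 436 ± 156 CPM over the 7 stages, with a count in each strain at 0 min (140 to 433 CPM). No step of snb-1 reached 2-fold: it was 0.97 ± 0.16 at 440 min and 0.83 ± 0.15 at 650 min (edgeR adjusted p = 6.03e-08 and 1.15e-06), higher in 19 and in 20 of 20 strains. When counts were pooled over the libraries of a stage, without TMM, its highest stage was 60 min, so the place of its peak depends on the scaling. Synapsin, snn-1 (Y38C1BA.2), a vesicle-associated phosphoprotein, had 80.5 ± 46 CPM at 650 min and 10.5 ± 11.9 CPM at 440 min and rose by 2.84 ± 0.32 (adjusted p = 1.14e-14 in edgeR).

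**Figure D3:**
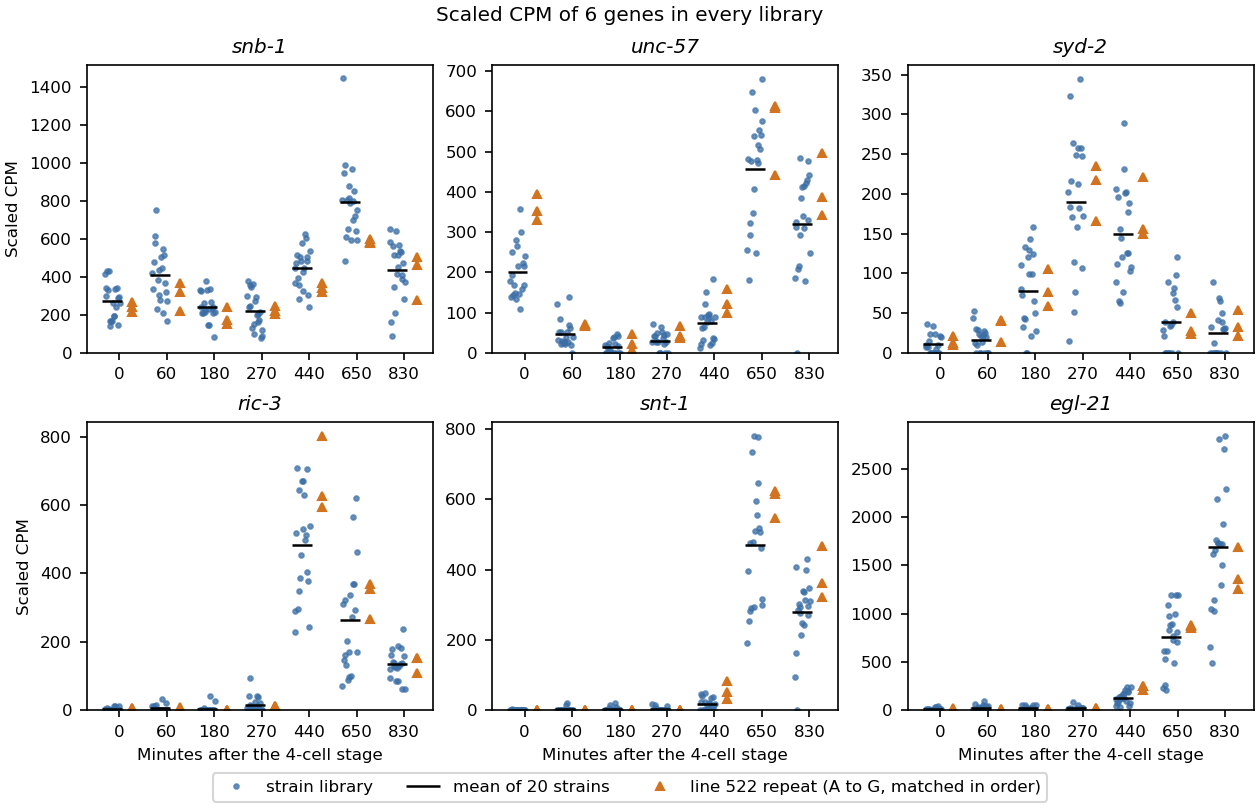
Scaled CPM (vertical axes, from 0) of 6 genes in each strain library (blue points), with the mean of the 20 strains (black line) and the 3 line 522 repeats (orange triangles, A to G placed at the stages in order). snb-1 and unc-57 were present at 0 min, syd-2 peaked at 270 min and ric-3 at 440 min, snt-1 was highest at 650 min and egl-21 at 830 min.

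The genes of priming and the active zone divided by time. Liprin-alpha, syd-2 (F59F5.6), an early scaffold of the presynaptic active zone, was highest at 270 min, before the called rises of rab-3 and ric-4. It had 10.6 ± 11.9, 16.5 ± 15.6, 77.6 ± 49.1, 190 ± 86.4, 149 ± 60.8, 39.3 ± 38.4 and 24.5 ± 27.8 CPM over the 7 stages. It rose at 180 min (2.01 ± 0.30, adjusted p = 3.18e-09) and again at 270 min (1.16 ± 0.23, 1.19e-05; under 2-fold with RLE, at 0.97, and with DESeq2, at 0.99) and fell by 1.74 on the log2 scale at 650 min (SE 0.28, 1.71e-08; edgeR). The fall held in 20 of 20 strains, with 0 to 120 CPM at 650 min and 63.2 to 290 CPM at 440 min, so the ranges overlapped. In the repeats syd-2 had 27.8, 23.3 and 50 CPM at F, against 221, 150 and 156 CPM at E, with no overlap.

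The ubiquitin ligase gene rpm-1 (C01B7.6), which shapes presynaptic terminals, followed a step behind syd-2. Its mean was 3.99, 2.49, 4.61, 32.7, 109, 39.0 and 57.9 CPM over the stages. It rose at 270 min (2.67 ± 0.40, adjusted p = 8.39e-09) and at 440 min (1.55 ± 0.27, 2.71e-07) and was lower at 650 min (-1.31 ± 0.29, 3.71e-05; edgeR). At F the repeats had 47.7, 23.3 and 32.5 CPM, against 77.4, 143 and 55.9 CPM at E. All 3 values at F lay below all 3 at E.

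The other active zone genes belonged to the late waves. The priming factor unc-13 (ZK524.2) had 422 ± 187 CPM at 650 min and 74.4 ± 47.2 CPM at 440 min, and a median of 0 at 270 min. It rose by 4.06 ± 0.38 at 440 min and 2.39 ± 0.22 at 650 min (edgeR adjusted p = 1.57e-19 and 3.31e-20), higher in 17 and 20 of 20 strains. RIM, unc-10 (T10A3.1), which tethers channels and vesicles at the active zone, had 131 ± 62.4 CPM at 650 min and 25 ± 26.8 CPM at 440 min and rose at both steps (2.23 ± 0.39 and 2.12 ± 0.27). The syntaxin-binding gene unc-18 (F27D9.1) had counts from 0 min on and rose at 650 min, with 68.0 ± 53.3 CPM at 650 min and 18.2 ± 17.7 CPM at 440 min (1.89 ± 0.33, adjusted p = 3.07e-07 in edgeR). The kinase gene sad-1 (F15A2.6), which organises presynaptic sites, was left out by the filter on low counts in the strains. It had 3 counts over the 20 libraries of 270 min, 24 at 440 min and 32 at 650 min, and none before. It was called at E against D in the repeats, with 38.7, 17.5 and 3.99 CPM at E, against 1.40, 0 and 1.27 CPM at D (3.52 ± 0.85, adjusted p = 0.000147 in edgeR).

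Among the 7 transport, endocytosis and channel genes, 5 of the 6 tested rose at 440 min, beside 25.5% of all genes, and 3 at 650 min, beside 21.7%. The calcium/calmodulin-dependent kinase gene unc-43 (K11E8.1), which acts in neurons and muscle, had 249 to 1036 CPM at 440 min (median 525), against 0 to 92.4 CPM at 270 min (median 27.8). The ranges did not overlap, and the step was 3.82 ± 0.25 (log2 ± SE, edgeR adjusted p = 4.35e-32). From there it differed by under 2-fold at 650 min (958 ± 300 CPM at 650 min and 529.6 ± 218 CPM at 440 min, 0.82 ± 0.19). In the repeats it stood at 1139, 808 and 1133 CPM at E and at 39.3, 18.5 and 46.9 CPM at D. Every value at E was above every value at D.

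The BK-type potassium channel gene slo-1 (Y51A2D.19), which limits release and also acts in muscle, shared this early step. It had 214 ± 95.7 CPM at 440 min and 8.85 ± 13.7 CPM at 270 min, with ranges of 66.9 to 396 and 0 to 39.8 CPM (4.14 ± 0.30, edgeR adjusted p = 1.02e-27). Its mean was 179 CPM at 650 min and 101 CPM at 830 min, below the level of 440 min in both, and neither of these steps was called. The kinesin gene unc-104 (C52E12.2), the motor that carries vesicle precursors down the axon, had 74.8 ± 58.4 CPM at 440 min and 3.96 ± 13.1 CPM at 270 min (3.04 ± 0.37, adjusted p = 3.34e-13 in edgeR) and differed by 0.42 ± 0.28 at 650 min, which was not called. In the repeats it had 94.0, 158 and 120 CPM at E and 0, 0 and 2.53 CPM at D. Its onset there lay at B, before this rise, with 14.8, 27.6 and 8.11 CPM at B and 0 counts at A. The step from A to B was called too (4.99, adjusted p = 0.00153 in edgeR) and kept in all 10 alternatives. It rests on 8, 2 and 3 counts at B. The presynaptic calcium channel gene unc-2 (T02C5.5) rose at both steps (1.74 ± 0.29 and 1.44 ± 0.24) and had its highest mean, 188 ± 82.6 CPM, at 650 min. Within the 6 strains listed first neither step was called, and the call at 650 min was also lost with plain totals.

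Of the endocytosis genes, endophilin, unc-57 (T04D1.3), which helps to shed clathrin and shape membranes, had a course of its own. It was high in 4-cell embryos, lower through the next stages and high again late, with 202 ± 64.8, 47.2 ± 34.8, 14 ± 16.3, 30.4 ± 22.1, 73.1 ± 45.1, 456 ± 140 and 321 ± 122 CPM over the 7 stages. It fell by 1.85 on the log2 scale at 60 min (SE 0.23, edgeR adjusted p = 2.11e-12) and by 1.52 at 180 min (SE 0.30, adjusted p = 3.73e-06). It was lower at 60 min in 20 of 20 strains, and it rose at 650 min by 2.53 ± 0.22 (adjusted p = 1.22e-21 in edgeR). The repeats had 396, 330 and 351 CPM at A, 70.4, 69.1 and 67.6 CPM at B and 6.57, 22.0 and 47.5 CPM at C, and these 3 sets did not overlap. With counts pooled over a stage and no TMM, unc-57 was highest at 0 min.

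Synaptojanin, unc-26 (JC8.10), a lipid phosphatase that works with endophilin, also had counts from 0 min, at 29.1, 23.4, 19.6, 38.6, 47.7, 113 and 69.3 CPM over the stages. Its step at 650 min (1.2 ± 0.28, edgeR adjusted p = 8.6e-05) was under 2-fold with plain totals (0.73). That call was also lost with RLE size factors, with DESeq2 and within the 6 strains listed first. The clathrin adaptor gene unc-11 (C32E8.10), whose product sorts synaptobrevin, was not tested in the strains. It had 1, 2, 5, 17, 36, 31 and 19 counts over the 20 libraries of each stage, and its onset by mean CPM lay at 270 min, but at 180 min by these pooled counts.

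The 3 tested dense-core vesicle genes rose at 440 min, beside 25.5% of all genes, and again at 650 min, beside 21.7%. The tyrosine phosphatase-like gene ida-1 (B0244.2), a protein of the vesicle membrane, had 389.5 ± 127 CPM at 650 min and 45.7 ± 39.0 CPM at 440 min (2.91 ± 0.24, edgeR adjusted p = 1.27e-23). Its ranges of 162 to 615 and 0 to 126 CPM did not overlap, and its level at 830 min was 367 ± 186 CPM. The neuropeptide convertase gene egl-3 (C51E3.7) and the carboxypeptidase gene egl-21 (F01D4.4) were the 2 members with their midpoint at 830 min in the strains. In the repeats 0 members had their midpoint at G, and these 2 had it at F. Mean egl-21 was 9.86, 22.2, 16.9, 16.9, 129, 758 and 1693 CPM over the stages, and single strains had 487 to 2839 CPM at 830 min (median 1720), against 202 to 1195 CPM at 650 min (median 785). The ranges overlapped, but egl-21 was higher at 830 min in 20 of 20 strains (1.18 ± 0.20, adjusted p = 4.01e-07 in edgeR). Egl-3 had 938 ± 312 CPM at 830 min and 400.4 ± 180 CPM at 650 min and was higher in 19 of 20 strains (1.27 ± 0.18, adjusted p = 4.33e-10 in edgeR).

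These were the only 2 of the 25 tested members called higher at 830 min, and both sit near the 2-fold limit. Within the 14 strains listed after the first 6, the change was 0.98 for egl-3 and 0.92 for egl-21, and without N2 it was 0.98 for egl-21. The repeats had 1310, 1064 and 932 CPM for egl-3 at G, against 712, 419 and 630 CPM at F (0.87 ± 0.22, adjusted p = 0.00106), and 1685, 1359 and 1254 CPM for egl-21 at G, against 883, 873 and 853 CPM at F (0.72 ± 0.23, adjusted p = 0.0111; edgeR). In both genes each value at G was above each at F, and neither reached 2-fold. Of the 25 tested members, 19 had a log2 change below 0 at 830 min, and ric-3 was the 1 called lower. The median change of the 25 was -0.66, beside -0.04 over all genes tested. With RLE size factors the 2 medians were -0.87 and -0.24. The fourth dense-core vesicle gene, unc-31 (ZK897.1), which primes these vesicles, had 0, 10, 4, 6, 6, 25 and 12 counts over the 20 libraries of each stage and was not tested in the strains.

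Genes that make or load a transmitter had few counts before 650 min. The summed level of the 8 genes was 36.1 ± 22.7 CPM at 440 min, 457 ± 135 CPM at 650 min and 321 ± 150 CPM at 830 min. Their means over the first 4 stages lay between 2.24 and 8.01 CPM. The GABA-synthesising decarboxylase gene unc-25 (Y37D8A.23) had 191.5 ± 82.0 CPM at 650 min and 4.42 ± 7.67 CPM at 440 min (4.80 ± 0.33, edgeR adjusted p = 3.29e-30), higher in 19 of 20 strains. In the repeats it had 199, 116.5 and 185 CPM at F and 16.6, 5.00 and 7.98 CPM at E. The vesicular glutamate transporter gene eat-4 (ZK512.6) had 69 counts over the 20 libraries of 650 min, in 17 of them, and 0 counts at 440 min. With 3 counts over the group taken as the floor, it was at least 30.2-fold higher at 650 min. In the repeats, with 68 counts at F and 0 at E, it was at least 25.6-fold higher at F.

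The filter on low counts left the other 6 transmitter genes out of the test in the strains. The vesicular GABA transporter gene unc-47 (T20G5.6) had 0, 0, 2, 1, 19, 78 and 30 counts over the 20 libraries of each stage. The gene unc-46 (C04F5.3), whose product sorts that transporter to vesicles, had 57 counts at 650 min and 3 at 440 min. Within the GABA genes, the onset of unc-47 was at 440 min and that of unc-25 and unc-46 at 650 min, and in the repeats at E, F and F. Within the 14 strains listed after the first 6, unc-46 had its onset at 440 min too, at 10.8% of its highest mean, so its place rests on few counts. Onset was set against each gene's own highest mean, so in the repeats it does not place the start of unc-25 after that of unc-47. There, unc-25 was called higher at E against D (log2 change 3.11, edgeR adjusted p = 0.00793). So was unc-47 (2.51, adjusted p = 0.0107 in edgeR). At E unc-25 had 16.6, 5.00 and 7.98 CPM and unc-47 16.6, 5.00 and 19.9 CPM. The call of unc-25 was lost without replicate 3, and that of unc-47 with plain totals and without replicate 1 or 3. The choline transporter gene cho-1 (C48D1.3), which feeds acetylcholine synthesis, had a count in each of the 20 strains at 650 min, 62 in all, and 2 counts at 440 min. In the repeats it had 67.6, 58.2 and 47.5 CPM at F and none at E (at least 15.4-fold higher at F by the same floor). By mean CPM the onset of cho-1 in the repeats lay at B, on 0, 1 and 2 counts.

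The genes of the monoamine neurons, which are few cells in the worm, had the fewest counts. The vesicular monoamine transporter gene cat-1 (W01C8.6) had 39 counts at 650 min and 7 at 440 min over the 20 libraries. The dopamine enzyme gene cat-2 (B0432.5), a tyrosine hydroxylase, had 28 counts at 650 min and none at 440 min, at least 12.3-fold higher at 650 min by that floor. The serotonin enzyme gene tph-1 (ZK1290.2), a tryptophan hydroxylase, had 15 counts at 440 min, in 11 of 20 libraries, 3 at 650 min and 14 at 830 min. It was the only one of the 8 whose highest stage mean in the strains lay at 440 min. The floor covers counting error only, and 33 counts in all carry little weight for the order of tph-1. In the repeats tph-1 was called at E against D, with 11.1, 7.50 and 7.98 CPM at E, against 0, 6.16 and 0 CPM at D (3.08 ± 1.08, edgeR adjusted p = 0.0111). That call was lost with DESeq2 and without replicate 1 or 3. The highest mean of tph-1 in the repeats did not lie at E. It had 11.9, 11.6 and 10.0 CPM at F and 0, 12.3 and 21.4 CPM at G.

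Both chaperone genes had their highest mean before 650 min. The gene ric-3 (T14A8.1), whose product matures acetylcholine receptors in neurons and muscle, had 482 ± 157 CPM at 440 min and 15.1 ± 23.1 CPM at 270 min. Single strains ran from 227 to 710 and from 0 to 92.4 CPM, with no overlap (4.43 ± 0.26, edgeR adjusted p = 1.86e-35). Its level was 134 ± 44 CPM at 830 min and 263 ± 158 CPM at 650 min, lower at 830 min by the called change of -1.05 ± 0.24 (adjusted p = 0.00017 in edgeR). That call was lost with strain as a block (-0.92) and within the 6 strains listed first (-0.73), and the change was -1.39 within the other 14. In the repeats ric-3 had 802, 625 and 594 CPM at E, against 12.6, 6.16 and 12.7 CPM at D, and 151, 152 and 107 CPM at G, against 354, 268 and 370 CPM at F. Both pairs were free of overlap. The gene unc-119 (M142.1), a carrier of lipid-modified membrane proteins that is expressed throughout the nervous system, was the earliest to peak. It had 37.5, 70.2, 175, 105, 106, 83.1 and 61.4 CPM over the stages and rose at 180 min by 1.25 ± 0.23 (adjusted p = 9.56e-07 in edgeR), in 19 of 20 strains. In the repeats it had 112, 118 and 114 CPM at C.

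Some calls of the early steps are weak. At 60 min unc-2, unc-18 and egl-3 were called higher, on means of 5.32, 12.8 and 8.44 CPM at 60 min and 0.527, 3.83 and 2.24 CPM at 0 min (edgeR adjusted p = 0.00979, 0.0129 and 0.0473). Within the 14 strains none of the 3 was called, and with DESeq2 none was either. At 270 min slo-1 (2.11 ± 0.53) and ric-3 (2.73 ± 0.48) were called but not within the 14 strains. The call of unc-104 at 270 min (1.48 ± 0.55, adjusted p = 0.0305 in edgeR) changed sign there, to -1.01, and was lost with strain as a block (1.23), with no filter and with DESeq2. The call of egl-3 at 60 min was likewise lost with strain as a block (1.01). At 440 min the call of unc-57 (1.13 ± 0.27) was under 2-fold with RLE size factors, at 0.73. Within the 6 strains listed first, snt-1, unc-64, unc-2, unc-57, unc-10 and snn-1 were not called at 440 min. Counting by strand is not stated, and 8 members overlap another annotated gene: rab-3, unc-64, syd-2, unc-26, eat-4, cat-2 and tph-1 on the opposite strand and unc-46 on the same one. Reads of the 2 genes of such a pair cannot be told apart with certainty.

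Members were compared within strains by the early share. This is the percent of a gene's CPM, summed over the 7 stages of a strain, that falls at 440 min or before. RNA present at 0 min counts towards this share, as in unc-57 and snb-1, so it does not give the order of onset alone. The share of unc-57 is above that of unc-43, yet unc-57 took its main rise at 650 min (log2 change 2.53). For unc-43 the main rise was at 440 min (3.82). The early share could be computed for the 11 members with at least 10 counts in each strain. From the smallest to the largest it was 3.31% ± 2.93 for snt-1, 7.51% ± 4.00 for rab-3, 8.08% ± 4.37 for egl-21, 8.10% ± 4.95 for egl-3, 8.25% ± 5.96 for ida-1, 11.3% ± 6.19 for unc-13, 18.8% ± 8.53 for ric-4, 28.6% ± 6.87 for unc-43, 33.1% ± 9.21 for unc-57, 56.2% ± 6.45 for snb-1 and 57.1% ± 13.2 for ric-3 (SD, n = 20). A two-sided paired permutation test (100000 sign flips) over the 20 strains found a difference in 47 of 55 pairs, with p-values adjusted over the 55. The smallest p that these permutations can give is 1e-05.

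The vesicle SNARE snb-1 and the calcium sensor snt-1, both proteins of the vesicle membrane, differed by 52.9 percentage points (snb-1 higher in 20 of 20 strains, permutation p = 1e-05, adjusted p = 1.57e-05). For ric-4 and unc-13 the difference was 7.42 points, with ric-4 higher in 17 of 20 strains (permutation adjusted p = 0.00312). Neighbours in the order that did not differ beyond their spread were egl-21 and rab-3 (0.566 points, permutation adjusted p = 0.537), egl-3 and egl-21 (0.0257 points, 0.977), ida-1 and egl-3 (0.147 points, 0.942) and ric-3 and snb-1 (0.814 points, 0.820). In the repeats, from means of 3 libraries and with no test, the early share was 5.47% for snt-1, 10.0% for rab-3, 22.2% for ric-4, 39.4% for unc-43, 56.5% for snb-1 and 59.7% for ric-3. With plain totals in place of TMM the shares in the strains were larger, such as 71.7% for snb-1 and 51.5% for unc-57, and 46 of 55 pairs differed.

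**Figure D4:**
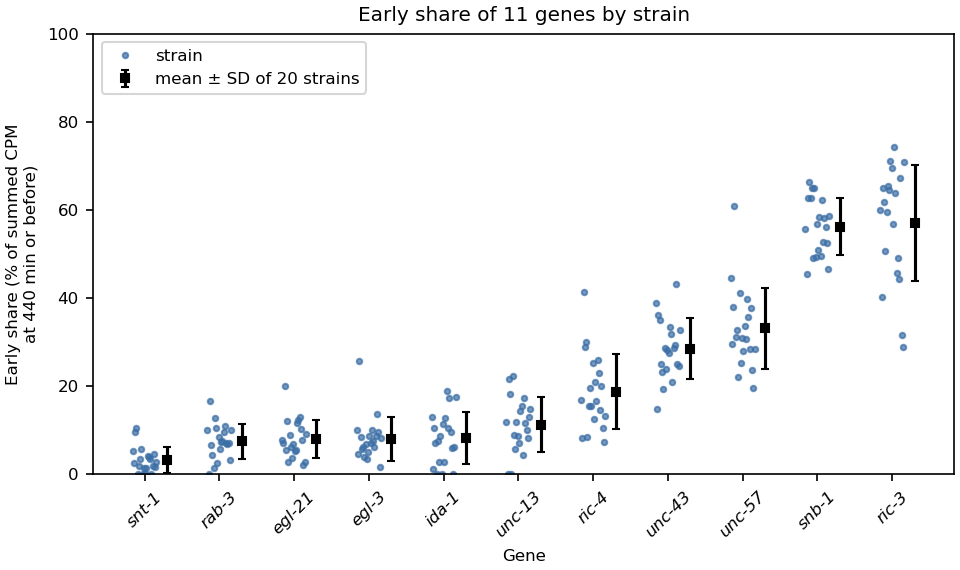
Early share, the percent of summed scaled CPM that falls at 440 min or before, for the 11 genes with at least 10 counts in each strain (horizontal axis). Blue points are the 20 strains and black squares the mean with its SD; snt-1 lies lowest at 3.31% and snb-1 and ric-3 highest at 56.2% and 57.1%.

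Strains differed in the late level of these genes. At 650 min the summed level was 6306 ± 2070 CPM in the 6 strains listed first (range 3843 to 9568) and 9100 ± 1166 CPM in the 14 listed after them (6707 to 11169). At 830 min it was 5293 ± 1894 CPM in the 6 (2271 to 7527) and 8110 ± 927 CPM in the 14 (6367 to 9734). The ranges overlapped at both stages. N2 had the lowest sum at 650 min, 3843 CPM, and ranked 17 of 20 at 830 min, with 5705 CPM. Its 650 min library held 95 counts of the 34 genes, and 1 library per stage gives N2 no replicate and no test. The lowest sum at 830 min, 2271 CPM, belongs to strain 502, whose library of 5653 counts is the smallest.

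Markers of other tissues were also lower in the 6 strains at 650 min. Body wall muscle markers summed to 7942 ± 2235 CPM in the 6 and 14191 ± 2208 CPM in the 14, gut markers to 7933 ± 2423 and 12428 ± 2496 CPM, and pharynx markers to 2847 ± 605 and 6445 ± 1434 CPM. Maternal messages summed to 730 ± 654 CPM in the 6 and 203 ± 187 CPM in the 14, and neuron identity and cytoskeleton genes to 1397 ± 315 and 1532 ± 239 CPM. The part of these differences in the synaptic levels was not tested. An edgeR F test of the strain terms beside stage called 14 of the 25 tested members at an adjusted p under 0.05, beside 47.5% of all 8842 genes tested. Within the 14 strains listed later it called 3 of 25, unc-104, unc-18 and unc-2 (adjusted p = 0.000602, 0.000548 and 0.0264), beside 11.2% of 8254 genes. The 7 stages of a strain stand in for replicates in this test, which covers no repeat culture.

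**Figure D5:**
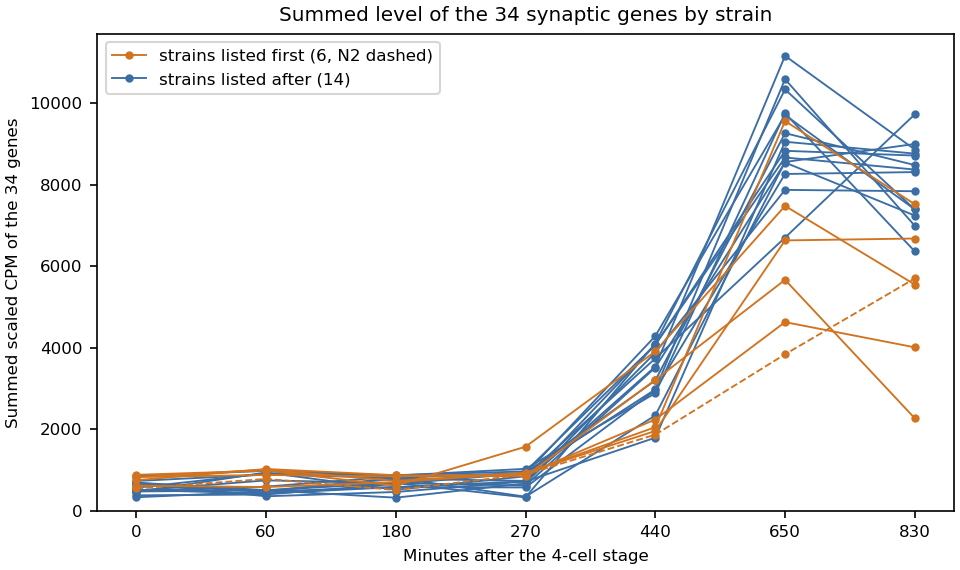
Summed scaled CPM of the 34 genes (vertical axis, from 0) at the 7 stages in each of the 20 strains, 1 line per strain; orange lines are the 6 strains listed first in the table, with N2 dashed, and blue lines the 14 listed after. On this axis the lines lie close together up to 270 min, though at 270 min they range from 331 CPM (598) to 1573.5 CPM (555). At 650 min N2 is lowest at 3843 CPM.

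A wider list of 113 matched genes of the same pathways was measured at the same steps. Of its 78 genes tested in the strains, 42 were called higher and 1 lower at 440 min, and 29 higher and 6 lower at 650 min; the background is that given for the members. At 440 min 10 of 13 channel and G protein genes and 10 of 16 further active zone and axon transport genes were higher. At 650 min these 2 lists held 3 and 1 genes called higher, whereas 7 of 9 transmitter receptor genes and 5 of 9 further transmitter synthesis and uptake genes were higher. The acetylcholine receptor genes gar-2 and lev-1 had 152 ± 55.4 and 149 ± 60.0 CPM at 650 min, against 8.26 ± 11.9 and 16.7 ± 18.8 CPM at 440 min (log2 changes of 4.01 ± 0.28 and 3.21 ± 0.28). Transporter genes snf-3 for betaine and dat-1 for dopamine rose by 5.01 ± 0.31 and 5.13 ± 0.44.

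At 650 min 7 of 14 further release genes were called higher and 0 lower, and 4 of 9 further dense-core vesicle genes higher and 1 lower. The Rab gene aex-6 (4.37 ± 0.28) and the synaptotagmin gene snt-4 (3.09 ± 0.26) rose at 650 min, as did pgal-1, which acts in neuropeptide amidation (4.69 ± 0.32), and sbt-1, a chaperone of the convertase (2.29 ± 0.23). Dynamin, dyn-1 (1.54 ± 0.24), and the stonin gene unc-41 (1.48 ± 0.22), both of endocytosis, rose less, and so did the active zone gene cla-1 (1.99 ± 0.25) and the channel genes unc-80 (2.09 ± 0.25) and cca-1 (1.63 ± 0.28). Lower at 650 min, as syd-2 and rpm-1 were, were the kinesin light chain gene klc-2 (-1.19 ± 0.19), lin-10 (-1.16 ± 0.25), unc-33, which acts in axon outgrowth (-1.14 ± 0.32), hid-1 (-1.35 ± 0.34), unc-50 (-1.23 ± 0.31) and ric-8 (-1.03 ± 0.26). The adjusted p of each named gene was below 0.05 in edgeR, and they were chosen by their p or direction at this step.

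The other tissues' markers show what else changed at these steps. At 440 min 6 of 6 body wall muscle and 6 of 6 gut markers were called higher, and at 650 min 4 of 6 and 5 of 6, with 4 of 5 pharynx markers. Myo-2 and myo-1 of the pharynx had 1085 ± 488 and 671 ± 295 CPM at 650 min, against 16.1 ± 18.2 and 12 ± 14 CPM at 440 min. Asp-5 and asp-1 of the gut rose by 5.06 ± 0.26 and 3.93 ± 0.26 at 650 min and the muscle genes unc-87 and unc-27 by 2.86 ± 0.26 and 1.86 ± 0.22, while the gut regulator elt-2 was lower (-1.22 ± 0.46). Of 6 epidermal markers 5 were lower at 650 min: lpr-3 (-6.47 ± 0.31), dpy-7 (-5.69 ± 0.33), noah-1 (-5.31 ± 0.27), sma-1 (-2.82 ± 0.24) and ajm-1 (-1.33 ± 0.21). The maternal messages puf-5 (1.41 ± 0.40) and spn-4 (1.24 ± 0.37) were called higher at 650 min but were higher in only 9 and 10 of 20 strains. Among 7 tested genes of neuron identity and cytoskeleton, 2 rose at 650 min, mec-12 (1.63 ± 0.20) and sto-6 (2.12 ± 0.29, named after its value was seen), and 4 were lower: tba-1 (-1.09 ± 0.13), daf-19 (-1.25 ± 0.21), ceh-44 (-1.24 ± 0.21) and unc-33. The neuronal marker rgef-1 was not detected up to 440 min in the strains, where its mean was 0. It had 11 counts in all over the 140 strain libraries, too few to place its onset.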

How the data were processed

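PolyA RNA of whole-embryo pools was sequenced by CEL-Seq, per the labels. The authors deposited unnormalized counts for each gene, and the submitters' processing notes name CASAVA 1.8 and Bowtie2 2.1.0. No counting program, build or strand setting is given in the sources used here, so no coordinates or sequences are printed. Unaligned reads made up 38.8% to 70.2% of the repeats' reads, and reads outside features 17.8% to 47.7% of those aligned; both entries were left out. No molecular identifiers are stated. Of the identifiers, 20063 matched a RefSeq locus tag and 624 did not; 7 columns with no matching sample were not used, and no 2 libraries were identical.

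Counts were fitted with edgeR 4.0.16 in R 4.3.3 (TMM, quasi-likelihood, two-sided, stage as the only term), after tests on simulated data. Genes with a mean of at least 1 count per library were kept, which favours members that are high late. Alternatives were RLE, plain totals, no filter, filterByExpr, DESeq2 1.42.0, blocks, separate fits, left-out libraries and subsets of strains; those on plain totals in the step tests and on subsets of strains were chosen after seeing the data. Genes named outside the 34 are the 2 with the smallest p of each list at 650 against 440 min and each one called lower there. The members and lists were chosen with earlier results of these data known. Libraries of a strain are paired across stages by the strain: deviations from stage means correlated at a median of 0.126 within a strain and -0.0120 between strains over 2080 genes.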

Additional observations from a re-analysis of the deposited data

How the results depend on the processing

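At 650 against 440 min, 14 of the 16 members called higher and both called lower kept their call in every alternative that tested them, and so did 11 of 17 at 440 against 270 min; the first 6 and last 14 strains mean the order of the table's columns. The shares of all genes called in the main fits are given above. The number of members called was 4 at 60 against 0 min, and 1 with filterByExpr, DESeq2, separate fits or the last 14 strains and 2 in the first 6. Over all genes, filterByExpr gave 470 higher and 436 lower of 2970, DESeq2 640 and 1941 of 8842, and separate fits 1187 and 1406 of 6364. The last 14 strains gave 1183 and 1230 of 8254, and the first 6 gave 1249 and 1084 of 9565. At 180 against 60 min the number of members was 3, and 6 with RLE and 7 in the first 6 strains. All genes there were 2292 higher and 1218 lower of 8842 with RLE, and 1659 and 1553 of 9565 in the first 6. At 270 against 180 min the number of members was 5, and 2 with filterByExpr or in the last 14 strains and 3 with DESeq2 or separate fits. All genes were 363 higher and 181 lower of 2970 with filterByExpr, and 761 and 476 of 8254 in the last 14. With DESeq2 they were 686 and 691 of 8842, and with separate fits 836 and 483 of 6981. The call of unc-104 at this step reversed to -1.01 in the last 14 strains, and the cause was not tested. At 440 against 270 min the number of members was 17, and 9 with filterByExpr, which tested 13 members, and 11 in the first 6 strains. All genes were 572 higher and 568 lower of 2970 with filterByExpr, and 1687 and 1175 of 9565 in the first 6. At 650 against 440 min the number of members was 18, and 9 with filterByExpr, beside 506 higher and 433 lower of 2970 genes. At 830 against 650 min the number of members was 3, and 8 with no filter, 6 in the last 14 strains and 5 with RLE, DESeq2 or separate fits. All genes were 1286 higher and 1931 lower of 18316 with no filter, and 506 and 1049 of 8254 in the last 14. They were 578 and 1347 of 8842 with RLE, 541 and 1118 with DESeq2, and 955 and 1123 of 8582 with separate fits. With strain as a replicate block the 6 steps gave 3, 3, 4, 18, 18 and 3 members. Of 8842 genes it called 1825, 1921, 1160, 2294, 1860 and 792 higher and 1189, 1459, 512, 1171, 1132 and 980 lower. The calls lost with this block were egl-3 at 60 min, unc-104 at 270 min and ric-3 at 830 min. In the repeats, B against A gave 5 members and 2 to 5 without one replicate. Without replicate 1, 2 or 3, all genes higher there numbered 989, 2875 and 1134, and those lower 905, 434 and 908. C against B gave 2 members, 1 with no filter and 0 to 2 without one replicate. All genes were 1070 higher and 1565 lower of 17644 with no filter. Without replicate 1, 2 or 3 they were 775, 713 and 958 higher and 1034, 2243 and 1175 lower. D against C gave 5 members, 2 with DESeq2, 3 with separate fits and 2 to 5 without one replicate. All genes were 512 higher and 424 lower of 11688 with DESeq2, and 841 and 415 of 8847 with separate fits. Without replicate 1, 2 or 3 they were 505, 1321 and 440 higher and 256, 228 and 278 lower. G against F gave 1 member, 2 with RLE, no filter, DESeq2, separate fits or the replicate block, and 1 to 6 without one replicate. Without replicate 1, 2 or 3, all genes higher there numbered 557, 544 and 562, and those lower 717, 908 and 683. Same-numbered repeats shared only a number (median r -0.0155), and the replicate block gave 4, 2, 4, 21, 21 and 2 members. Of 11688 genes it called 1513, 1165, 811, 3099, 2623 and 593 higher and 1101, 1579, 351, 1387, 1564 and 943 lower. The strain effect was called in 14 of 25 members, 12 with RLE and 3 within the last 14 strains. Beside these stand 47.5%, 41.8% and 11.2% of all genes tested. Low depth limits the early stages, and the filter left out 9 members in the strains. With no filter 21 and 25 of 34 members were called at 440 and 650 min. Of all 18316 genes then tested, 3582 were higher and 1654 lower at 440 min, and 3483 and 1871 at 650 min. A promoter motif search was not run.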
